A study of Mus musculus with 24 samples.

Results

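The mitochondrial ribosomal protein genes were taken as all genes whose symbol begins with Mrpl (large subunit) or Mrps (small subunit) followed by a digit. Of 78 such protein-coding genes in the reference annotation, 76 had a named probe on the array and 72 could be tested, which was 72 of 8875 tested genes. A gene was tested where a probe had a detection p below 0.01 on at least 3 of the 24 arrays, and the probe with the highest mean intensity stood for the gene. The 72 comprised 45 large subunit and 27 small subunit genes. Mrpl19, Mrpl32, Mrpl45 and Mrps14 were not detected on any array, and Mrpl41 and Mrps36 had no named probe here.

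The mitochondrial ribosome sits in the mitochondrial matrix and translates the few proteins that mitochondrial DNA encodes, all of them subunits of the oxidative phosphorylation complexes. Its RNAs come from mitochondrial DNA, but every one of its proteins is encoded in the nucleus, made in the cytosol and imported. Many of these proteins descend from bacterial ribosomal proteins, and others were added in the mitochondrial lineage.

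The cells were bone marrow-derived macrophages grown from adult female C57bl/6J mice. GCHfl/flTie2cre mice (animals 1, 4 and 5) carried floxed Gch1 alleles and the Tie2cre transgene, which drives Cre in endothelial and bone marrow-derived cells. Their comparators, GCHfl/fl mice (animals 2, 3 and 6), carried the floxed alleles without Cre and served as wild-type. Gch1 encodes GTP cyclohydrolase 1, the rate-limiting enzyme of tetrahydrobiopterin synthesis, and the floxed part was exons 2 and 3. Macrophages of both genotypes were serum-starved and then given LPS with interferon-gamma, and RNA was taken from each animal just before the stimulus (0 h) and at 2, 8 and 24 h, which gave 8 groups of 3 arrays. The comparison asks how loss of Gch1 alters the transcript response of activated macrophages.

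Mean intensity per array ran between 593 and 1750, 27.0 to 33.3% of probes were detected, and 66 to 72 of the 72 genes were detected on an array. GCHfl/fl animal 2 at 24 h had the highest mean intensity. For the brighter probe of Gch1 itself the difference of GCHfl/flTie2cre minus GCHfl/fl cells was −2.55, −2.23, −2.60 and −1.86 on the log2 scale at 0, 2, 8 and 24 h (limma adjusted p = 0.000606, 0.00311, 0.000614 and 0.00959), with no overlap of the genotypes; whether the probes lie in the deleted exons is not given in the sources used here. All 5 macrophage markers on the array were detected, and no T cell, B cell, dendritic cell, NK cell or erythroid marker reached the detection limit for testing. Of 4 endothelial and 4 fibroblast markers 1 each was tested, Kdr (detected on 8 arrays) and Dcn (on 10 arrays), and neither was called between genotypes at 24 h. Of 6 neutrophil markers on the array 4 were tested, and the summed level of the 6 moved over the time course. At 24 h the sum was almost all S100a8, with a mean log2 level of 14.41 in GCHfl/flTie2cre and 13.99 in GCHfl/fl cells. S100a9 stood at 7.69 and 6.11, and Elane, Mpo, Camp and Ltf between 5.18 and 6.29. Before the stimulus the sum ran between 1200 and 7460 in GCHfl/flTie2cre cells, against 1420 to 7220 in GCHfl/fl cells. The 2 h arrays ran between 1570 and 10600 in GCHfl/flTie2cre cells, against 2140 to 10600 in GCHfl/fl cells. Later it was higher than at 0 h in both genotypes, between 15100 and 31500 in GCHfl/flTie2cre cells at 8 h, against 17600 to 42900 in GCHfl/fl cells. The 24 h arrays ran between 10200 and 35000 in GCHfl/flTie2cre cells, against 11700 to 30100 in GCHfl/fl cells. S100a8 was detected on all 24 arrays, S100a9 on 15 and Mpo on 0. At 24 h S100a9 differed by 1.58 between genotypes (GCHfl/flTie2cre minus GCHfl/fl, limma adjusted p = 0.936). The summed levels of the genotypes overlapped at each time, and the part of these markers in the responses was not tested.

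Promoters were described for the members as a set. RefSeq promoters of GRCm38.p6, each a window of 300 bases across the gene's start, were matched by symbol for 64 of the 72 genes, and each was searched on both strands for the cores of the binding motifs of NRF1 (GCATGCGC), ETS factors such as GABPA (CCGGAAGT) and YY1 (AAGATGGCG), factors known for regulating nuclear-encoded mitochondrial genes. No core contains another. The NRF1 core was present in 7 of 64 (10.9%), against 3.05% of the 27025 genes with a promoter in the table. The ETS core was present in 12 of 64 (18.8%), against 4.31% of all genes. The YY1 core was present in 8 of 64 (12.5%), against 1.64% of all genes, and at least 1 of the cores was present in 25 (39.1%), against 8.47% of all genes. The 64 members had passed the detection filter on these arrays, while the shares over all genes include genes that had not. No share over the tested genes alone is given. A match is a description of letters only. Mrpl13, Mrpl15, Mrpl38, Mrpl4, Mrpl54, Mrps28, Mrps34 and Mrps35 were not matched. Shown are the promoter of Mrpl52, the member called between genotypes (plus strand, chr14:54426659-54426958), of Mrpl43, which dipped and then rose (minus strand, chr19:45006393-45006692), and of Mrpl42 (minus strand, chr10:95501900-95502199) and Mrpl23 (plus strand, chr7:142532782-142533081), which had the largest falls at 8 h in GCHfl/flTie2cre cells, with the core matches in capitals. Mrpl52 held the ETS core on the opposite strand, Mrpl43 the ETS core and Mrpl42 the YY1 core on the gene's strand, and Mrpl23 none.
Mrpl52: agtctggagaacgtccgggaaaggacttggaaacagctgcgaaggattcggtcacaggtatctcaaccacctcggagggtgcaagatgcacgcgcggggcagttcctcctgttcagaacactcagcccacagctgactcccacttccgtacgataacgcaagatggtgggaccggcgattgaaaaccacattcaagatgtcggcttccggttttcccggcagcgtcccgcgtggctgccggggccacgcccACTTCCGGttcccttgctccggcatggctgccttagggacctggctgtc
Mrpl43: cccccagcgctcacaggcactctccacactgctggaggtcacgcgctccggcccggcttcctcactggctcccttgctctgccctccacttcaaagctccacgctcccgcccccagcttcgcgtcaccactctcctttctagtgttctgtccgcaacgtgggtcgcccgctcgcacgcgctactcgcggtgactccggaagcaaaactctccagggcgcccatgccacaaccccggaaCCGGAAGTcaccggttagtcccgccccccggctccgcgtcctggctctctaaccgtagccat
Mrpl42: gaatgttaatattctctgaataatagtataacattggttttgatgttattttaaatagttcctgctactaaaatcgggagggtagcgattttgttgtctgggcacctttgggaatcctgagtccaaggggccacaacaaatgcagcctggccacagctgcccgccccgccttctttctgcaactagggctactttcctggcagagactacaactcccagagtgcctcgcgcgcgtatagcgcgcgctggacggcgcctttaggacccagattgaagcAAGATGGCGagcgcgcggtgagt
Mrpl23: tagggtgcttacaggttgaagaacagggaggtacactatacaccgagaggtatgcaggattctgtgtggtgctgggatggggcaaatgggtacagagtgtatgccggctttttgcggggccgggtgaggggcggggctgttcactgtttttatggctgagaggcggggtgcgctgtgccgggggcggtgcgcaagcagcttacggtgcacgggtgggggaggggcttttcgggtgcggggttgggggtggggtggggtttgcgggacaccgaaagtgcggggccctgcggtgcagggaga

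Levels are given as background-corrected, quantile-normalized log2 intensity, and a change is the difference of such values, so that 1 is a 2-fold change. Each p-value rests on the spread between arrays of the same genotype and time, pooled by limma over the 8 groups and moderated across probes. It does not measure the spread of the 3 animals of 1 group alone. A gene was called where limma's adjusted p, corrected over all 16498 tested probes, was below 0.05 and the change exceeded 1.5-fold, and the percentage of all tested probes called in the same direction is given beside the members' counts. In RNA from a whole culture, fewer cells of a kind and less RNA per cell cannot be told apart. Levels of different genes come from different probes and were not compared as amounts of RNA. By signal on the array the brightest members were Mrps24, Mrpl52 and Mrpl33, with mean intensities of 7334, 7083 and 6515, and the dimmest were Mrpl57, Mrps27 and Mrpl35, with 218, 262 and 278. The last 3 were detected on 3, 11 and 13 of the 24 arrays, while 65 members were detected on all 24.

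**Figure D1:**
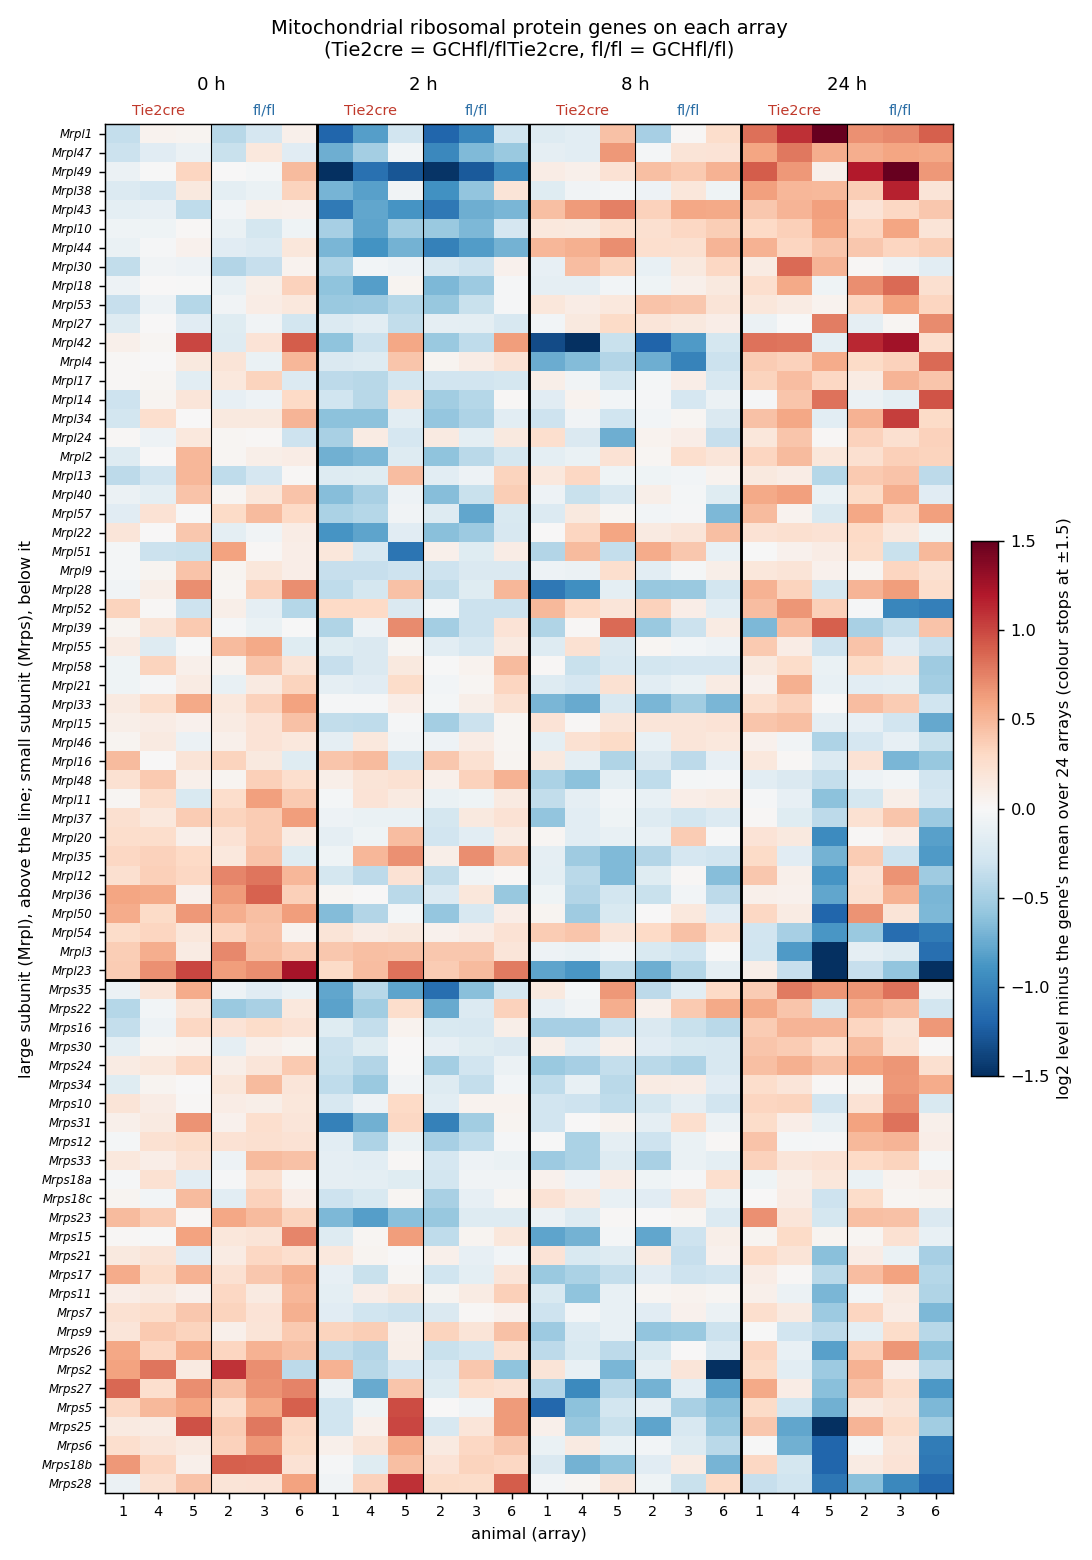
Level of the 72 genes (rows) on the 24 arrays (columns, by time and, within a time, GCHfl/flTie2cre left of GCHfl/fl), as log2 level minus the gene's mean over all arrays, with colour cut at 1.5 either way. Genes are ordered within each subunit by their change at 24 h; most rows are blue at 2 h, and animals 5 and 6 are bluer than the others in the lower rows of each block at 24 h.

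Between genotypes, no member was called before the stimulus or in its first 8 h. At 0 h, 0 of 72 members were called higher and 0 lower in GCHfl/flTie2cre cells (0% and 0.0242% of all tested probes), with a median difference of −0.07, against −0.00 over all tested genes. At 2 h the counts were again 0 and 0 (0% and 0.0242% of probes), with a median of −0.03. At 8 h they were 0 and 0 (0% and 0.0182% of probes), with a median of −0.05. An unadjusted p below 0.05 was reached by 2 members at 0 h (2.78%, against 1.65% of all probes) and by 0 at 2 and 8 h (2.57% and 4.61% of all probes). The 95% interval of the difference lay within 1.5-fold either way for 26, 39 and 32 of the 72 members at 0, 2 and 8 h, and reached beyond that size for the others.

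At 24 h, 1 member was called higher in GCHfl/flTie2cre cells and 0 lower (0.097% and 0.224% of all tested probes). The member was Mrpl52, a large subunit protein without a bacterial counterpart. Its level at 24 h was 13.15, 13.34 and 13.04 in GCHfl/flTie2cre animals 1, 4 and 5, against 12.67, 11.70 and 11.65 in GCHfl/fl animals 2, 3 and 6. The genotypes did not overlap, and within GCHfl/fl animal 2 stood well above animals 3 and 6. The difference was 1.17 ± 0.23 (log2, SE, 95% interval 0.69 to 1.65), a 2.25-fold higher level (adjusted p = 0.0273). That SE is pooled over the 8 groups, and the SDs at 24 h were 0.15 in GCHfl/flTie2cre and 0.57 in GCHfl/fl cells. Without animal 1, 3, 4 or 6 the difference was 1.19, 1.02, 1.09 or 0.99 and the adjusted p was 0.135, 0.58, 0.506 or 0.0842, so that the call was lost in each case. Without animal 2 the call held, as it did without animal 5 (adjusted p = 0.00588 and 0.0346). At 0 h the levels of Mrpl52 were 13.01, 12.70 and 12.37 in GCHfl/flTie2cre animals, against 12.77, 12.55 and 12.25 in GCHfl/fl animals, and the genotypes overlapped.

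The next 4 positive values at 24 h belonged to large subunit genes that did not pass the test. Mrpl15, a homologue of a bacterial large subunit protein, stood at 10.45, 10.50 and 9.91 in GCHfl/flTie2cre cells, against 9.92, 9.76 and 9.28 in GCHfl/fl cells. The ranges touched, with GCHfl/flTie2cre animal 5 just under GCHfl/fl animal 2, and the difference was 0.63 ± 0.20 (adjusted p = 0.206). Other probes for Mrpl15 gave 0.63, 0.48 and 0.76, and 2 dim ones, detected on 13 and 11 arrays, gave 0.00 and −0.09. Mrpl30 and Mrpl21, also with bacterial homologues, differed by 0.56 ± 0.20 and 0.43 ± 0.20 (adjusted p = 0.281 and 0.512), and Mrpl1, of the L1 stalk, by 0.38 ± 0.25 (adjusted p = 0.764).

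The most negative values at 24 h were those of Mrps25, Mrpl49 and Mrps31, none of which has a bacterial homologue. Mrps25, a small subunit protein, stood at 8.18, 6.99 and 6.24 in GCHfl/flTie2cre cells, against 8.28, 8.05 and 7.25 in GCHfl/fl cells. Its genotypes overlapped and its difference was −0.72 ± 0.43 (adjusted p = 0.699). The large subunit gene Mrpl49 had levels of 10.56, 10.30 and 9.73 in GCHfl/flTie2cre cells, against 10.85, 11.32 and 10.31 in GCHfl/fl cells, a difference of −0.63 ± 0.25 (adjusted p = 0.383), while its 3 dimmer probes gave −0.29, 0.08 and 0.26. Mrps31, of the small subunit, differed by −0.41 ± 0.30 (adjusted p = 0.809).

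Over the 72 members the 24 h difference had a median of −0.01, against −0.02 over all tested genes, with 36 members positive and 36 negative. The large subunit median was 0.02 and the small subunit median −0.11. An unadjusted p below 0.05 at 24 h was reached by 6 of 72 members (8.33%), against 9.36% of all probes. For 27 of 72 members the 95% interval lay within 1.5-fold either way. The cytosolic ribosomal protein genes, whose products form the ribosome outside mitochondria, had a median of 0.41 at 24 h with 53 of 60 positive and 2 called higher (3.33%, against 0.097% of all probes), and the oxidative phosphorylation subunit genes a median of 0.10 with 0 of 70 called; these medians were not tested against each other.

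**Figure D2:**
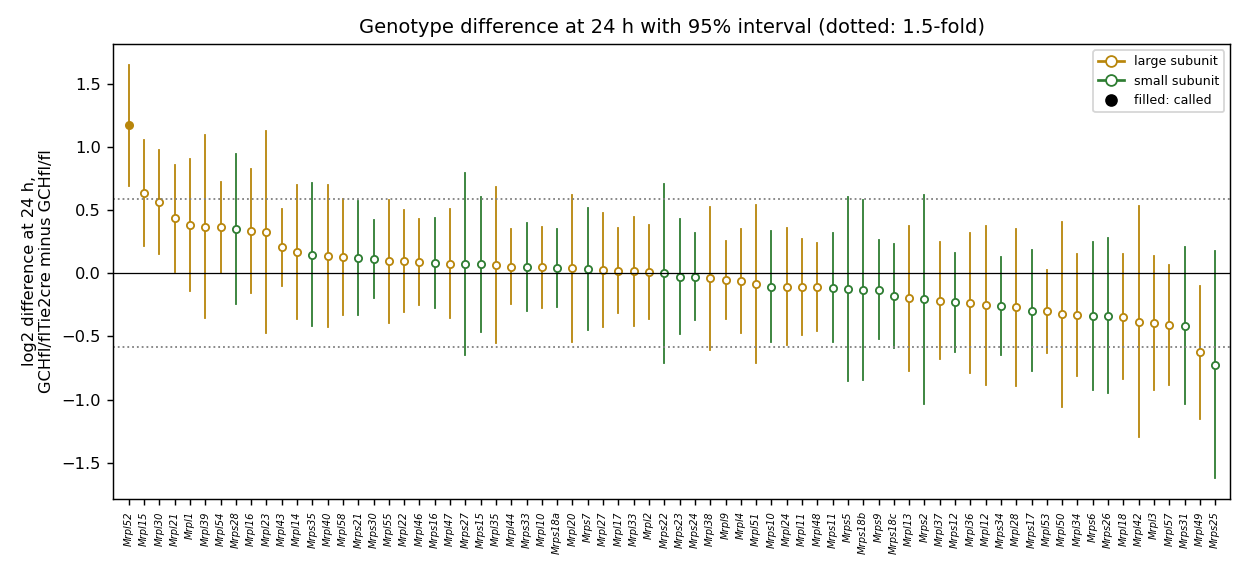
Log2 difference at 24 h (GCHfl/flTie2cre minus GCHfl/fl, vertical axis) for each of the 72 genes, with its 95% interval, coloured by subunit, with dotted lines at 1.5-fold. Mrpl52 at 1.17 is the only filled (called) point, and the other 71 points run between −0.72 and 0.63.

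The stimulus was followed within each genotype. In GCHfl/flTie2cre cells at 2 h, 0 members were called higher and 7 lower than at 0 h (6.75% and 9.68% of all tested probes), and 64 of 72 had a negative change. The median change was −0.26, against −0.11 over all tested genes. GCHfl/fl cells at 2 h had 0 members called higher and 8 lower (6.95% and 8.39% of probes), 63 of 72 were negative and the median was −0.38, against −0.10 over all tested genes. The lower calls were 9.72% of members in GCHfl/flTie2cre and 11.1% in GCHfl/fl cells. Those in GCHfl/fl cells include Mrpl57, whose probe was detected on 1 array at 0 h and 0 at 2 h. With the deposited VSN values 14 members were called lower in GCHfl/flTie2cre cells, against 8.03% of all probes on that scale. Without animal 1, 4 or 6 the GCHfl/flTie2cre count was 3, 4 or 12, and without animal 1, 2, 3 or 4 the GCHfl/fl count was 5, 3, 3 or 5. Counts with an animal left out, here and below, are given without the share of all probes called in the same fit. They do not show whether members lost or gained calls more than other probes did. The 2, 8 and 24 h responses of a genotype share its 0 h arrays.

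Mrpl49 had the largest 2 h fall in both genotypes. In GCHfl/flTie2cre cells it stood at 8.17, 8.54 and 8.37 at 2 h, against 9.56, 9.65 and 9.98 at 0 h, a fall by 1.37 on the log2 scale (SE 0.24, adjusted p = 0.000379). Its GCHfl/fl levels were 8.18, 8.39 and 8.70 at 2 h, against 9.66, 9.63 and 10.13 at 0 h, a fall by 1.38 (SE 0.24, adjusted p = 0.000359). Every 2 h array was below every 0 h array of its genotype.

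Of the called genes, 4 passed the test in both genotypes at 2 h, namely Mrpl43, Mrpl44, Mrpl49 and Mrps23, which was 57.1% of the GCHfl/flTie2cre calls and 50% of the GCHfl/fl calls, against 66.2% and 76.4% for lower calls over all tested probes. Mrpl43, a large subunit protein, had levels of 9.84, 10.12 and 10.01 at 2 h in GCHfl/flTie2cre cells, against 10.75, 10.78 and 10.51 at 0 h, and fell by 0.69 (adjusted p = 0.0015). The GCHfl/fl levels of Mrpl43 were 9.82, 10.17 and 10.21 at 2 h, against 10.85, 10.97 and 10.96 at 0 h, and fell by 0.86 (adjusted p = 0.000206). Its groups did not overlap in either genotype. Mrpl44, a large subunit protein with a ribonuclease III-like fold, fell by 0.74 in GCHfl/flTie2cre cells and by 0.78 in GCHfl/fl cells (adjusted p = 0.000571 and 0.000362). Mrps23, of the small subunit, fell by 1.00 and 0.78 (adjusted p = 0.00184 and 0.0112). Mrps35, another small subunit gene, fell by 0.89 in GCHfl/flTie2cre cells (adjusted p = 0.019; 0.0885, 0.0658 and 0.184 without animals 1, 4 and 5), and by 0.54, under the fold limit, without background correction, and Mrpl36, the homologue of the smallest bacterial large subunit protein, fell by 0.83 in GCHfl/fl cells (adjusted p = 0.0265; 0.0516 to 0.175 without any one animal other than 5).

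At 8 h, 2 members were called higher and 16 lower in GCHfl/flTie2cre cells (15.9% and 17.9% of all tested probes), with a median of −0.23, and 0 higher and 18 lower in GCHfl/fl cells (14.7% and 16% of probes), with a median of −0.30, against −0.06 and −0.05 over all tested genes. The counts lower were 22.2% and 25% of the 72 members. That in GCHfl/fl cells includes Mrpl57, whose probe was detected on 1 array at 0 h and 0 at 8 h. Without animal 1 or 4 the GCHfl/flTie2cre count of lower members was 6 or 4, and without animal 2, 3, 4 or 6 the GCHfl/fl count was 6, 6, 11 or 8. The medians were −0.41 for the small and −0.08 for the large subunit in GCHfl/flTie2cre cells, and −0.52 and −0.15 in GCHfl/fl cells. Negative changes were seen for 23 of 27 small subunit genes in GCHfl/flTie2cre cells and 25 of 27 in GCHfl/fl cells. The subunits were not tested against each other. Lower calls were shared by 13 genes, which was 81.2% of the GCHfl/flTie2cre calls and 72.2% of the GCHfl/fl calls, against 73.5% and 82.2% for lower calls over all tested probes.

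Mrpl23, whose bacterial homologue lines the exit of the peptide tunnel, stood at 10.68, 10.60 and 11.11 at 8 h in GCHfl/flTie2cre cells, against 11.86, 12.16 and 12.47 at 0 h. In GCHfl/fl cells its levels were 10.74, 11.05 and 11.33 at 8 h, against 12.10, 12.17 and 12.71 at 0 h. No 8 h array reached a 0 h array in either genotype, and the falls were by 1.37 and 1.29 on the log2 scale (SE 0.36 each, adjusted p = 0.00546 and 0.00892). The adjusted p was 0.0734 without animal 4 in GCHfl/flTie2cre cells, and 0.0544 and 0.0553 without animals 2 and 3 in GCHfl/fl cells.

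Mrpl42, a large subunit protein without a bacterial counterpart, had 9.24, 9.08 and 10.24 at 8 h in GCHfl/flTie2cre cells, against 10.66, 10.60 and 11.58 at 0 h. Mrpl42 in GCHfl/fl cells had 9.37, 9.73 and 10.31 at 8 h, against 10.38, 10.79 and 11.49 at 0 h. The 8 h and 0 h arrays did not overlap, and animals 5 and 6 stood above the others of their genotype at 0 and 8 h. The falls were by 1.43 (adjusted p = 0.0102; 0.0576 and 0.0761 without animals 1 and 4) and 1.08 (adjusted p = 0.0473; 0.0518 to 0.168 in 8 of 17 alternatives).

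Mrps27, a small subunit protein of the pentatricopeptide repeat type, and Mrps5, a homologue of a bacterial small subunit protein, were near the detection limit at 8 h. Mrps27 was detected on all 3 arrays of each genotype at 0 h and on none at 8 h. With the 8 h arrays set at their detection floor, it was at least 1.09-fold lower in GCHfl/flTie2cre and at least 1.20-fold lower in GCHfl/fl cells. Without the floor its changes were −1.20 and −1.17 (adjusted p = 0.0068 and 0.00853). Both were under the fold limit with the deposited VSN values (−0.46 in each genotype) and without background correction (−0.44 and −0.42). Mrps5 in GCHfl/flTie2cre cells was likewise not detected at 8 h, and was at least 1.49-fold lower (adjusted p = 0.00935). In this bound the bright group's mean was set against, on each array, the higher of the probe's own signal and the lowest signal among detected probes. No interval is given for the bounds, and each was under 1.5-fold. The adjusted p-values given with them test the changes without the floor. Mrpl35, a homologue of a bacterial large subunit protein, was at least 1.11-fold lower in GCHfl/flTie2cre cells at 8 h (adjusted p = 0.035). The calls of Mrpl57 in GCHfl/fl cells at 2 and 8 h (adjusted p = 0.0177 and 0.0344) rest on a probe detected on 0 arrays at those times and 1 at 0 h, and allow no fold. Mrps24 and Mrpl33, which are bright on the array, fell by 0.67 and 0.88 in GCHfl/flTie2cre cells and by 0.59 and 1.00 in GCHfl/fl cells.

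The 2 members called higher at 8 h were Mrpl43 and Mrpl44, both of which were lower at 2 h. Mrpl43 stood at 11.34, 11.53 and 11.65 at 8 h in GCHfl/flTie2cre cells, against 10.75, 10.78 and 10.51 at 0 h, a rise of 0.83 ± 0.14 (adjusted p = 0.00012). Its level in GCHfl/fl cells was 11.24, 11.47 and 11.46 at 8 h and its change of 0.46 was under 1.5-fold. Mrpl44 rose by 0.59 ± 0.13 in GCHfl/flTie2cre cells (adjusted p = 0.00173), just over the fold limit, and was under it with the deposited VSN values (0.43), without background correction (0.52) and without animal 5 (0.58). The difference between the genotypes' 8 h changes was called for 0 members.

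**Figure D3:**
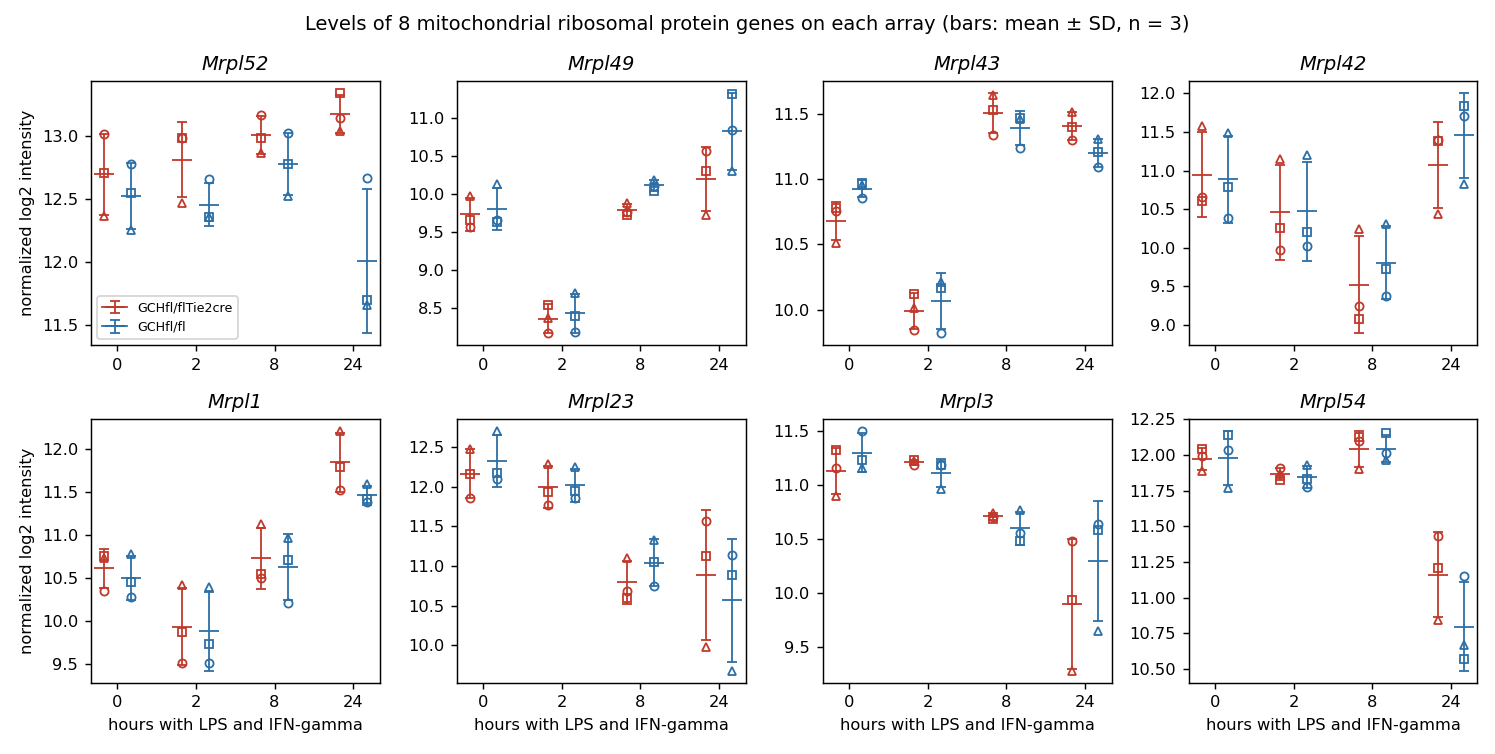
Normalized log2 intensity of 8 genes on every array, by time (horizontal axis), GCHfl/flTie2cre (red) left of GCHfl/fl (blue), circle, square and triangle for animals 1, 4, 5 and 2, 3, 6; bars are mean and SD of 3 animals. Mrpl49 and Mrpl43 are lowest at 2 h, Mrpl42 is lowest at 8 h, Mrpl1 is highest at 24 h, and Mrpl52 separates the genotypes at 24 h, where GCHfl/fl animals 3 and 6 are at 11.70 and 11.65.

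By 24 h the set had no common direction. In GCHfl/flTie2cre cells, 4 members were called higher and 6 lower than at 0 h (16.8% and 15.8% of all tested probes), with a median change of 0.01. GCHfl/fl cells had 3 members called higher and 7 lower (16.5% and 15.8% of probes), with a median of −0.09. Both shares were below that of all probes. The count of lower members in GCHfl/flTie2cre cells was 2 without animal 4 or animal 5; in GCHfl/fl cells it was 4 without animal 3 or animal 6, and the count of higher members was 8 without animal 6. All members called higher were large subunit genes, while 3 of the members called lower in each genotype were small subunit genes.

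Mrpl1, which forms the mobile L1 stalk by the tRNA exit site in bacterial ribosomes, had the largest 24 h rise in GCHfl/flTie2cre cells. There it stood at 11.52, 11.79 and 12.21 at 24 h, against 10.35, 10.75 and 10.73 at 0 h, a rise of 1.23 ± 0.23 (adjusted p = 0.000425). Mrpl1 in GCHfl/fl cells stood at 11.38, 11.41 and 11.59 at 24 h, against 10.28, 10.45 and 10.78 at 0 h, a rise of 0.96 ± 0.23 (adjusted p = 0.00338). All 24 h arrays were above all 0 h arrays, and a second, dimmer probe rose by 1.70 and 1.04. Mrpl47, a large subunit homologue of bacterial L29, rose by 0.84 and 0.69 (adjusted p = 0.00222 and 0.00912; for GCHfl/fl 0.0947 without animal 2 and 0.0597 without animal 6).

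Mrpl49 rose by 1.02 ± 0.24 in GCHfl/fl cells (adjusted p = 0.00222), which was the largest rise in that genotype, and had a change of 0.47 ± 0.24 in GCHfl/flTie2cre cells (adjusted p = 0.127). The GCHfl/fl change was 0.68 without animal 3 (adjusted p = 0.0926) and 0.33 with the mean of its tested probes (adjusted p = 0.285), the dimmer probes of Mrpl49 giving 0.49, 0.54 and −0.70. Mrpl43 rose by 0.73 in GCHfl/flTie2cre cells (adjusted p = 0.000429) and had a change of 0.27 in GCHfl/fl cells (adjusted p = 0.128), while its second probe, detected on all 24 arrays, gave 0.54 and 0.58 (adjusted p = 0.00991 and 0.00654), both under the fold limit. Mrpl30 rose by 0.66 in GCHfl/flTie2cre cells (adjusted p = 0.00872). Whether these changes differ between genotypes was tested through the difference of the responses.

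Mrpl23 had the largest fall at 24 h in both genotypes. Its levels were 11.57, 11.13 and 9.98 at 24 h in GCHfl/flTie2cre cells, against 11.86, 12.16 and 12.47 at 0 h, a fall by 1.27 (adjusted p = 0.00887). The fall was by 1.39 without animal 4 (adjusted p = 0.0538) and by 0.66 without animal 5 (adjusted p = 0.197). The GCHfl/fl levels were 11.13, 10.88 and 9.68 at 24 h, against 12.10, 12.17 and 12.71 at 0 h, a fall by 1.76 (adjusted p = 0.000786). The groups did not overlap, and animals 5 and 6 were lowest. Mrpl3, whose bacterial homologue reaches towards the peptidyl transferase centre, stood at 10.48, 9.93 and 9.28 at 24 h in GCHfl/flTie2cre cells, against 11.15, 11.32 and 10.90 at 0 h, and fell by 1.23 (adjusted p = 0.00054). Mrpl3 in GCHfl/fl cells fell by 1.00 (adjusted p = 0.00287), and a second probe fell by 1.12 and 0.71.

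Mrpl54, a large subunit protein without a bacterial counterpart, stood at 11.43, 11.21 and 10.84 at 24 h in GCHfl/flTie2cre cells, against 11.99, 12.04 and 11.88 at 0 h. Its GCHfl/fl values were 11.15, 10.57 and 10.67 at 24 h, against 12.03, 12.14 and 11.77 at 0 h. The groups did not overlap in either genotype, and the falls were by 0.81 and 1.18 (SE 0.16 each, adjusted p = 0.000651 and 1.51e-05). Mrps28, the mitochondrial counterpart of bacterial S1, fell by 0.76 and 1.26 (adjusted p = 0.0301 and 0.0011). Mrps25 fell by 1.04 in GCHfl/flTie2cre cells with overlapping groups (adjusted p = 0.0489, and 0.06 to 0.586 in 11 of 16 alternatives). Its change was −0.32 without animal 5, −0.49 with the mean of its tested probes, −0.55 with the deposited VSN values and −0.52 without background correction.

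**Figure D4:**
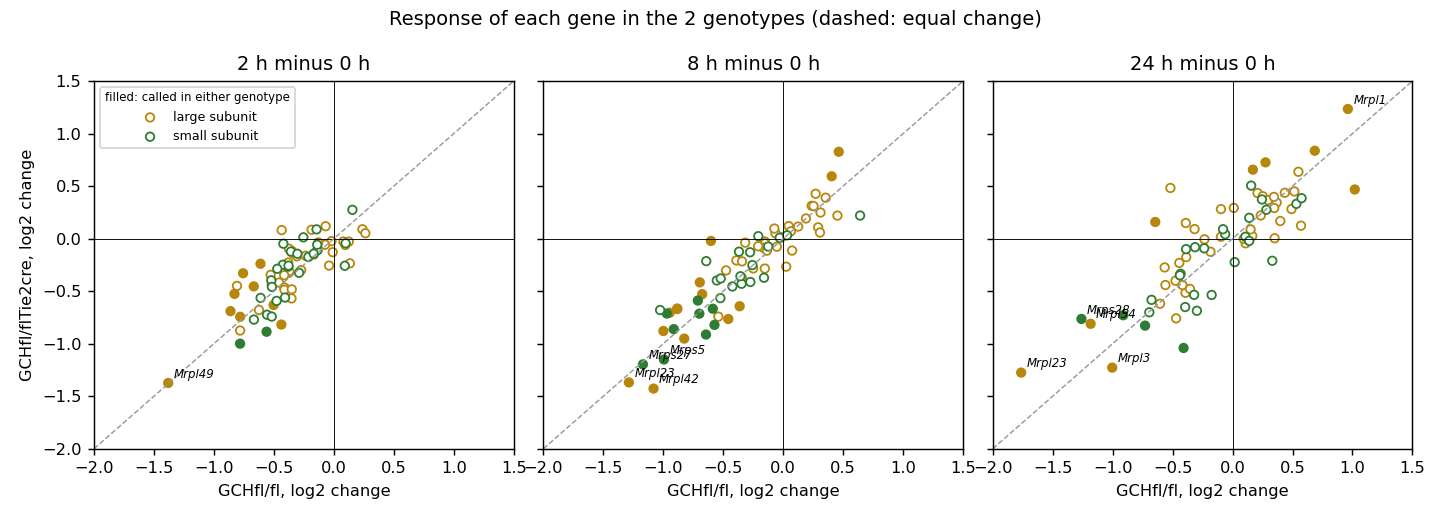
Log2 change from 0 h in GCHfl/flTie2cre (vertical axis) and GCHfl/fl (horizontal axis) cells for the 72 genes at 2, 8 and 24 h, coloured by subunit; filled points were called in at least 1 genotype and the dashed line marks equal change. At 2 h most points lie in the lower left, at 8 h the small subunit points lie low, and at 24 h points spread between −1.76 and 1.23.

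The difference of the responses (the change in GCHfl/flTie2cre minus the change in GCHfl/fl) was called for 0 of 72 members at each time. Over all tested probes, 0% were called in either direction for the 2 h and 8 h responses. For the 24 h response 0% of probes were called higher and 0.0121% lower. Its median was 0.04, 0.03 and 0.06. At an unadjusted p below 0.05 there were 1, 0 and 3 members at 2, 8 and 24 h (1.39%, 0% and 4.17%), against 1.36%, 2.21% and 5.79% of all probes. For Mrpl52 the difference at 24 h was 1.00 ± 0.30 (95% interval 0.37 to 1.63, adjusted p = 0.436), for Mrpl15 0.80 ± 0.27 (adjusted p = 0.522), for Mrpl43 0.45 ± 0.20 (adjusted p = 0.775; −0.04 for its second probe), for Mrpl1 0.27 ± 0.33 and for Mrpl49 −0.55 ± 0.33 (adjusted p = 0.977).

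Animals 5 and 6 stood apart in how the set moved. The median change of the 72 members at 24 h was 0.16, 0.15 and −0.35 in GCHfl/flTie2cre animals 1, 4 and 5, against 0.07, 0.01 and −0.42 in GCHfl/fl animals 2, 3 and 6. At 2 h it was −0.33, −0.35 and −0.14 in GCHfl/flTie2cre animals, against −0.45, −0.46 and −0.20 in GCHfl/fl animals. These 2 animals had the smallest falls at 2 h and the only negative medians at 24 h, when 50 of 72 members in animal 5 and 51 of 72 in animal 6 were below their 0 h level. At 8 h the 6 medians lay between −0.32 and −0.18. The all-gene medians of animals 5 and 6 at 24 h were −0.01 and 0.00. Their 24 h arrays had 29.7 and 29.0% of probes detected, against 30.8 to 32.9% in the other animals. On them 67 and 68 members were detected, against 70 to 72. At 0 h their member median levels were 10.76 and 10.93, against 10.63 to 10.76 in the others. The part of these array traits in the changes was not tested. Animals 5 and 6 are 1 animal of each genotype. A term for animals 5 and 6, the same at all times, left the Mrpl52 difference at 24 h at 1.17 (adjusted p = 0.00715). Such a term cannot take up a shift that changes with time, so the part of these animals in that difference was not tested. Without animal 5 the Mrpl52 call held and without animal 6 it was lost (adjusted p = 0.0346 and 0.0842).

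**Figure D5:**
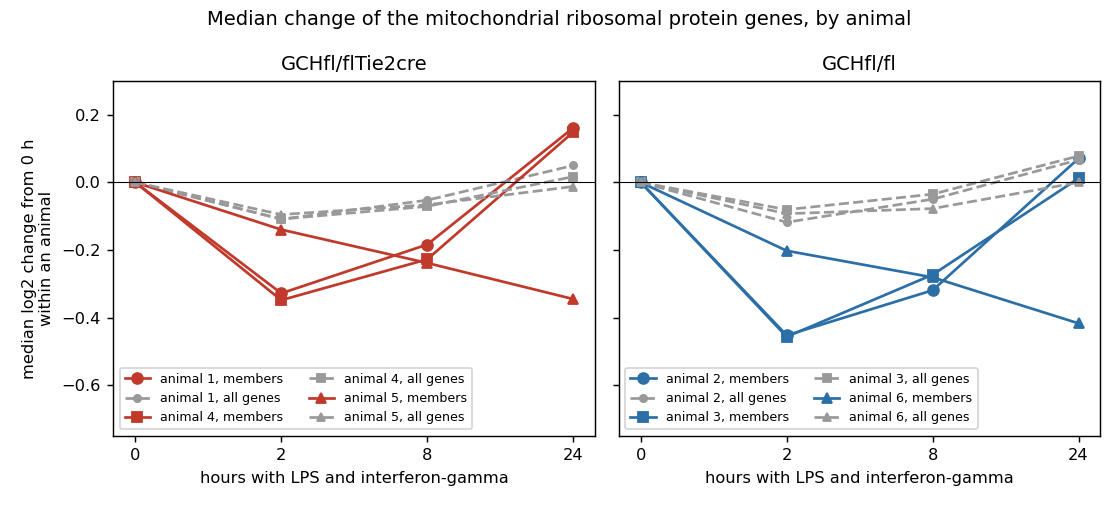
Median log2 change from 0 h of the 72 genes (coloured lines) and of all tested genes (grey dashed lines) within each animal, by hours of stimulation; GCHfl/flTie2cre is on the left and GCHfl/fl on the right. Animals 5 and 6 (triangles) are at −0.35 and −0.42 at 24 h, and the other 4 animals are between 0.01 and 0.16.

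Several genes had probes that disagreed over time. Another probe of Mrps31 fell by 1.41 and 1.00 at 24 h in GCHfl/flTie2cre and GCHfl/fl cells (adjusted p = 0.000412 and 0.00649), while its brightest probe changed by −0.21 and 0.33. A second probe of Mrps11, a small subunit gene, fell by 1.56 and 1.43 (adjusted p = 0.000143 and 0.000348), while its brightest probe changed by −0.33 and −0.43. These 2 genes were picked after their values were seen. Of the 72 members 27 had more than 1 tested probe.

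Other genes of mitochondrial gene expression were followed through 5 lists of 70 tested genes in all. The lists were other ribosomal proteins of the mitochondrion, translation factors, tRNA synthetases, assembly and rRNA factors, and a list around mitochondrial DNA. The last list held factors for transcription and replication of mitochondrial DNA together with regulators of nuclear genes, among them Nrf1, Gabpa, Yy1 and Ppargc1b. Beside translation factors, the list of that name held Lrpprc, Slirp, Oxa1l, Mtfmt and Pdf. Beside tRNA synthetases, the list of that name held Gatb, Gatc and Qrsl1. Between genotypes at 24 h, 0 of the 70 were called and their median was 0.01. At 2 h, 1 was called higher and 20 lower in GCHfl/flTie2cre cells, and 1 higher and 13 lower in GCHfl/fl cells, with medians of −0.40 and −0.38. The lower calls were 28.6% and 18.6% of the 70, against 9.68% and 8.39% of all probes. Among the 15 genes of the translation factor list 8 were lower in GCHfl/flTie2cre cells and 4 in GCHfl/fl cells at 2 h (53.3% and 26.7%). The shares of the other lists taken singly are not given. At 24 h, 14 of the 70 were higher and 4 lower in GCHfl/flTie2cre cells, and 13 higher and 2 lower in GCHfl/fl cells. These were 20% higher and 5.71% lower in GCHfl/flTie2cre cells, against 16.8% and 15.8% of all probes, and 18.6% higher and 2.86% lower in GCHfl/fl cells, against 16.5% and 15.8% of all probes. Mrm1, an rRNA methyltransferase, rose by 1.74 and 1.96 (adjusted p = 1.99e-05 and 5.29e-06). Polg2, the accessory subunit of the mitochondrial DNA polymerase, rose by 1.64 in GCHfl/flTie2cre and 1.58 in GCHfl/fl cells (adjusted p = 6.53e-05 and 0.000102). Its probe was dim, with a mean intensity of 245. In GCHfl/fl cells Ppargc1b, a coactivator of mitochondrial biogenesis, rose by 1.71 (adjusted p = 0.00393), and its change in GCHfl/flTie2cre cells was 0.92 (adjusted p = 0.0989). The largest falls among called genes in GCHfl/flTie2cre cells were those of Mars2, the mitochondrial methionyl-tRNA synthetase, by 1.03 (adjusted p = 0.00467), and Nrf1, the transcription factor whose motif was searched above, by 0.73 (adjusted p = 0.00558). The GCHfl/fl changes of Mars2 and Nrf1 were −0.52 and −0.38 (adjusted p = 0.129 and 0.134). The Mars2 probe was also dim, with a mean intensity of 229. Among called genes in GCHfl/fl cells the largest falls were those of Noa1, a GTPase of ribosome assembly, by 0.99, and Kars, a lysyl-tRNA synthetase, by 0.59. The GCHfl/flTie2cre changes of Noa1 and Kars were −0.47 and −0.58 (adjusted p = 0.214 and 0.024), that of Kars just under the fold limit. The difference of the 24 h responses was called for 0% of the 70 genes.

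For the cytosolic ribosomal protein genes the median change at 2 h was −0.06 in GCHfl/flTie2cre and −0.13 in GCHfl/fl cells. By 24 h it was −0.30 with 10 of 60 called lower in GCHfl/flTie2cre cells, against −0.85 with 36 of 60 called lower in GCHfl/fl cells. These counts were 16.7% in GCHfl/flTie2cre and 60% in GCHfl/fl cells, against 15.8% of all probes in each. The difference of the 24 h responses between genotypes was called for 0% of these 60 genes in either direction. The oxidative phosphorylation subunit genes had a median change at 2 h of −0.15 in GCHfl/flTie2cre and −0.19 in GCHfl/fl cells, and by 24 h of 0.03 in GCHfl/flTie2cre and −0.10 in GCHfl/fl cells. Members that have a bacterial homologue (43 genes) and those that do not (29 genes) had medians of −0.23 and −0.29 in GCHfl/flTie2cre cells at 2 h, and of −0.35 and −0.41 in GCHfl/fl cells. These medians are descriptions and their differences were not tested. Of the 72 members 37 were called in at least 1 response of either genotype and 34 in no comparison, among them Mrpl10, Mrpl11, Mrps7, Mrps12 and Mrps16. No share of all tested probes over these comparisons together is given, so these counts are a listing and do not show whether members were called more or less often.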

How the data were processed

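RNA from 24 macrophage cultures (6 animals at 4 times) was hybridised by the authors to 24 Illumina MouseWG-6 v2 arrays. The deposited table holds the unnormalized probe intensity and a detection p-value for each array; the deposited normalized table holds log2-scale VSN values that the authors made with limma in R 2.14, and served only as an alternative here. No column of the authors' own comparisons was used. The chip of each array is not given in the sources used here.

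Intensities were corrected with neqc (offset 16) and quantile normalized, and the 8 groups were fitted in limma 3.58.1 (R 4.3.3, statmod 1.5.0) with the animal as a random block (correlation 0.124) and Benjamini-Hochberg adjustment over 16498 probes. Repeat arrays of an animal share their source: their deviations from the group means had median correlations of 0.165 to 0.34 (lowest single pair −0.028). No such value is given for arrays of different animals. The authors describe their array data as paired, but the sample labels name no pairs, and genotypes were compared here without pairing. Probes were named through the platform annotation and RefSeq. The fit was tested on simulated data.

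The members and lists were chosen with earlier results of these data known. Named were members called between genotypes, the 3 largest called rises and falls in each response, the 5 highest and 3 lowest differences at 24 h, the brightest and dimmest 3, members whose probes disagreed, and the largest responses of other mitochondrial genes. Alternatives were other normalizations, filters, blocks, probe rules, no fold minimum and each animal left out.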

Additional observations from a re-analysis of the deposited data

Results flagged for a closer look

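The 24 h response of Mrpl52 ran in opposite directions in the genotypes. Its change from 0 h was 0.13, 0.64 and 0.68 on the log2 scale in GCHfl/flTie2cre animals 1, 4 and 5, and −0.11, −0.85 and −0.60 in GCHfl/fl animals 2, 3 and 6. The difference of the responses was 1.00 (SE 0.30, 95% interval 0.37 to 1.63), with a limma adjusted p = 0.436 over all tested probes. It did not pass the correction, and neither genotype's own change was called. Mrpl52 had 1 tested probe.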

How the results depend on the processing

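No called value of a named gene reversed its direction under the alternatives run. Of the 13 member medians 7 took both signs, each by less than the spread between replicates: over the alternatives the 24 h response ran from −0.13 to 0.13 in GCHfl/flTie2cre and from −0.15 to 0.02 in GCHfl/fl cells, the genotype difference from −0.13 to 0.00 at 0 h, −0.14 to 0.06 at 2 h and −0.17 to 0.06 at 24 h, and the difference of responses from −0.02 to 0.10 at 2 h and −0.11 to 0.18 at 24 h. Of the named genes' values 512 kept their side of the threshold and 54 lost it. The 512 include values of genes not called in the reported fit, which kept their side by staying uncalled. They also include the setting with no fold minimum, in which no call can be lost. The total is therefore not a measure of how firm the calls are. With the deposited VSN values, 14 members were lower at 2 h in GCHfl/flTie2cre cells (7 in the reported fit) and 1 was higher at 8 h (2 in the reported fit); without background correction that last count was also 1. With no filter on dim probes, 5 members were lower at 2 h and 10 at 8 h in GCHfl/fl cells. With no fold minimum, 10 were higher at 24 h in GCHfl/flTie2cre cells, and 3 at 8 h and 5 at 24 h in GCHfl/fl cells. Without the array of GCHfl/fl animal 2 at 24 h, an alternative chosen after seeing the data, 12 were lower at 24 h in GCHfl/fl cells. The cause was not tested.

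With each animal left out in turn, the count called between genotypes at 24 h was 0 to 1. In GCHfl/flTie2cre cells the counts were 3 to 12 lower at 2 h, 4 to 18 lower and 1 to 2 higher at 8 h, and 2 to 9 lower and 3 to 6 higher at 24 h. In GCHfl/fl cells they were 3 to 11 lower at 2 h, 6 to 19 lower at 8 h, and 4 to 9 lower and 2 to 8 higher at 24 h. The difference of responses was called for 0 members under all 17 alternatives. Counts under the alternatives are given here without the share of all probes called in the same setting.

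Without the animal as a replicate block, 7, 14 and 5 members were lower at 2, 8 and 24 h in GCHfl/flTie2cre cells and 5, 14 and 5 in GCHfl/fl cells, and 1 differed between genotypes at 24 h. With the animal as a fixed replicate block, 8, 17 and 6 were lower in GCHfl/flTie2cre cells and 8, 16 and 8 in GCHfl/fl cells; differences between genotypes could not be fitted. The number of arrays limits the precision, and members near background have bounds only.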
